A study of Mus musculus with 146 samples.

Results

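The 224 genes described here are the protein-coding mouse genes whose symbol is Zfp followed by a number, that are present in the deposited table of variance-stabilised values, and that reached a mean of at least 5 CPM (counts-per-million, the count of a gene scaled to the total count of its library) over 146 macrophage libraries. They are 224 of the 10893 genes of that table. The raw count table held 392 protein-coding Zfp genes, of which 308 were in the variance-stabilised table and 84 of those stayed under 5 CPM. The other 84 were absent from the variance-stabilised table, and their highest mean was 4.09 CPM, for Zfp459. Zfp469 reached 5.58 CPM but is annotated as a long noncoding RNA and was left out. The mean CPM thus chose the genes, and their levels are given as a description without a test.

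The libraries were made from bone marrow-derived macrophages, cells grown from marrow for 5 days in medium containing a supernatant of L929 fibroblasts, which supplies the growth factor Csf1. The donors were outbred CFW mice (Crl:CFW(SW)-US_P08) aged 16 weeks, 86 labelled female and 60 labelled male, each giving 1 library. The labels name no engineered allele, and no culture was treated. The labels also give 7 plates and 28 collection dates, and the design text names co-expression and wound healing among the aims of the study.

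Zfp stands for zinc finger protein, a name given to genes of several unrelated roles. Most encode C2H2 fingers, short loops in which a pair of cysteines and a pair of histidines hold a zinc ion and which mostly read DNA in tandem. A large class also carries a KRAB domain, which recruits the corepressor Trim28 and, through Setdb1, histone H3 lysine 9 methylation; these genes arose by tandem duplication, lie in clusters, and are best known for silencing endogenous retroviruses. A small group, Zfp36, Zfp36l1 and Zfp36l2, has CCCH fingers instead, which bind AU-rich elements of messenger RNA and speed its decay, a step that limits cytokine production in macrophages.

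To show how C2H2 and CCCH fingers differ, a finger is given for each of 2 genes on which the results below turn. The finger sequences are coding strands from GENCODE M21 transcripts on GRCm38, 5′ to 3′, and the capitals mark the cysteine and histidine codons that hold the zinc. The Zfp148 finger lies in coding exon 3 at chr16:33466906-33466974 on the plus strand, and the Zfp36l2 finger in coding exon 2 at chr17:84186668-84186727 on the minus strand.
Zfp148, C2H2 finger 1: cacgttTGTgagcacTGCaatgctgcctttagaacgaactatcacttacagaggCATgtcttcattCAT
Zfp36l2, CCCH finger 1: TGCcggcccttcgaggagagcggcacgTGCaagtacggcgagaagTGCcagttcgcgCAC
By pattern matches in the translated coding sequences, 97 of the 224 genes had a KRAB match with C2H2 fingers, 119 had C2H2 fingers without a KRAB match, and 8 had no C2H2 match. The 8 were Zfp36, Zfp36l1, Zfp36l2, Zfp330, Zfp503, Zfp703, Zfp839 and Zfp935, of which Zfp935 had a KRAB match. The genes with a KRAB match carried a median of 12 fingers (range 3 to 33), and the C2H2 genes without it a median of 8 (range 1 to 36). Zfp142 had the most fingers, 36, followed by Zfp619 with 33 and Zfp729b and Zfp236 with 30 each. A pattern can miss a diverged domain, so these are counts of matches.

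The depth ranged from 14483441 to 120926429 counts per library, and the lowest count of any of the 224 genes in any library was 36. The 8 macrophage markers summed to 11549 to 24939 CPM, with Lyz2 highest, and none was at 0. Markers of neutrophils and granulocyte precursors summed to 75.5 to 1732 CPM, with a median of 343 CPM, led by Mpo. Markers of T and NK cells stayed under 8.44 CPM, of B cells under 9.52 CPM, of erythroid cells under 1.25 CPM and of mast cells and basophils under 1.31 CPM in sum, and stromal markers reached at most 68.1 CPM. In 6 libraries, 4 labelled female and 2 labelled male, the Y-linked counts went against the label, and the counts and named genes of the sex comparison below are given with and without them. In bulk RNA, fewer cells of a type and less RNA per cell cannot be told apart.

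Together the 224 genes took 0.593% to 0.760% of the counts of a library, with a median of 0.661%. Their median level was 16.7 CPM. Per kb of exon the median was 3.61 CPM per kb, against 9.70 CPM per kb for the 9329 other protein-coding genes chosen by the same rules. A comparison set of 32 Zbtb genes, transcription factors that also use C2H2 fingers, had a median of 4.85 CPM per kb. Of the 224 genes 7 exceeded 100 CPM, 160 lay between 10 and 100 CPM, and 57 were under 10 CPM. The genes with a KRAB match had a median of 3.10 CPM per kb and the C2H2 genes without it 4.22 CPM per kb.

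**Figure D1:**
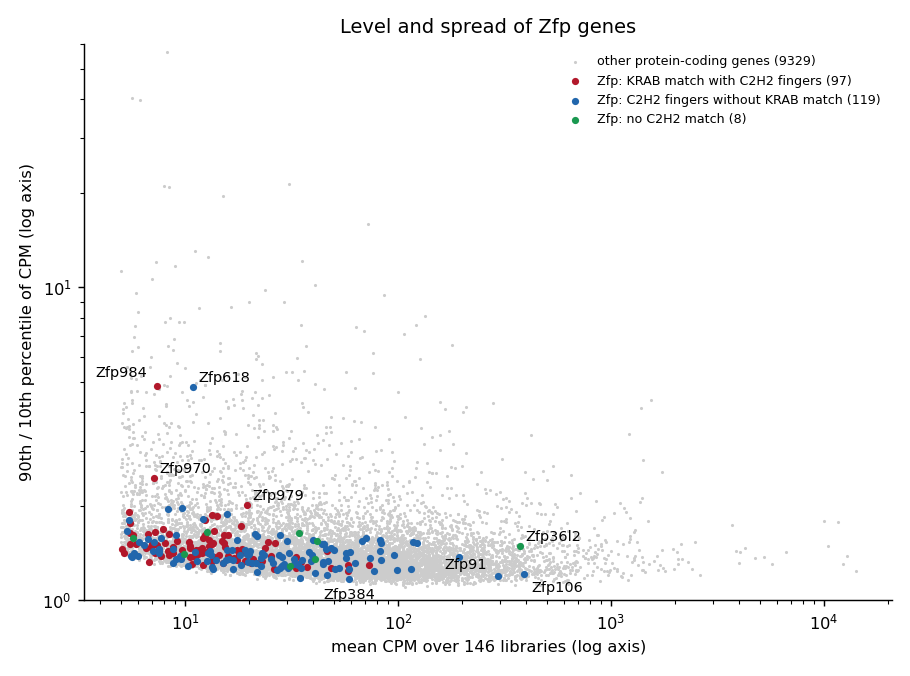
Mean CPM of each gene over 146 libraries (log axis) against its spread, the 90th percentile of CPM divided by the 10th (log axis). Grey points are 9329 other protein-coding genes, and coloured points are the 224 Zfp genes by class; most lie low on both axes, and Zfp984, Zfp618, Zfp970 and Zfp979 lie at a ratio of 2 or more.

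Zfp106, which encodes an RNA-binding protein needed by motor neurons, had the highest mean CPM, 391 ± 27.8 CPM (SD, n = 146) and a range of 321 to 472 CPM. Its counts are uncertain, since 27.8% of its 50-mers also occur in another gene, 27.7% in Gm26899, which overlaps it. Zfp36l2, one of the mRNA decay factors, followed with 374 ± 59.3 CPM (SD, n = 146) and ranged from 260 to 552 CPM. Per kb of exon Zfp36l2 came first, with 106 CPM per kb against 37.4 CPM per kb for Zfp106. Zfp91, a nuclear protein described as a ubiquitin ligase in NF-kB signalling, stood at 295 ± 22.2 CPM (SD, n = 146). Zfp207, which binds the checkpoint protein Bub3 at kinetochores, stood at 194 ± 23.6 CPM (SD, n = 146). Zfp638, known for silencing unintegrated retroviral DNA with the HUSH complex, reached 122 ± 20.8 CPM (SD, n = 146). Zfp710 and Zfp706 followed with 118 and 115 CPM. The next 3 were Zfp148 with 99.2 CPM, Zfp652 with 96.0 CPM and, behind them, Zfp451, a SUMO ligase. None of these 10 genes had a KRAB match.

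Both other mRNA decay factors were present in every library. Zfp36, also called tristetraprolin, had a lowest, median and highest level of 22.2, 32.4 and 60.3 CPM. Zfp36l1 had 22.0, 40.7 and 72.5 CPM, and 49.1% of its 50-mers occur in another gene, so its counts are uncertain. Per kb of exon the means were 106 CPM per kb for Zfp36l2, 14.0 CPM per kb for Zfp36l1 and 9.84 CPM per kb for Zfp36, so Zfp36l2 was the most abundant of the 3.

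At the threshold of 5 CPM, Zfp563 (5.05 CPM), Zfp707 (5.16 CPM), Zfp759 (5.32 CPM), Zfp874a (5.43 CPM) and Zfp931 (5.48 CPM) lay just inside. Zfp7 (4.97 CPM), Zfp429 (4.95 CPM), Zfp661 (4.92 CPM), Zfp772 (4.87 CPM) and Zfp688 (4.74 CPM) lay just outside. Known repressors of retroviral and imprinted sequence, named here for their role and not by the rule for naming genes, were well inside. Zfp809, which recognises the primer binding site of Moloney retroviruses, had 11.5 ± 1.59 CPM (SD, n = 146). Zfp568, a repressor of a placental Igf2 transcript, had 39.3 ± 4.79 CPM (SD, n = 146). Zfp445, which helps to maintain imprints, had 58.3 ± 4.99 CPM (SD, n = 146).

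Most of the 224 genes varied little between mice. The 90th percentile of CPM divided by the 10th, called the ratio below, had a median of 1.41, against 1.38 for the other protein-coding genes and 1.38 for the Zbtb genes. It exceeded 2 in 4 of the 224 (1.79%), against 8.45% of the other genes. Among the genes between the quartiles of the Zfp levels the shares were 1.79% of 112 Zfp genes and 10.8% of 2777 other genes, with medians of 1.40 and 1.42. The median ratio was 1.45 for genes with a KRAB match and 1.39 for the C2H2 genes without it. The steadiest were Zfp384 (ratio 1.17), Zfp410 (1.17), Zfp91 (1.19), Zfp146 (1.20) and Zfp106 (1.21). Zfp410, known as a dedicated activator of Chd4, ranged only from 28.0 to 39.9 CPM over all libraries.

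The 10 widest were Zfp984 (4.85), Zfp618 (4.78), Zfp970 (2.45), Zfp979 (2.01), Zfp874b (1.97), Zfp251 (1.95), Zfp931 (1.91), Zfp111 (1.89), Zfp738 (1.87) and Zfp943 (1.85). Zfp984 had a lowest, median and highest level of 1.89, 5.41 and 19.8 CPM. Its largest step between neighbouring libraries on the log2 scale, with at least 5 libraries on either side, ran from 6.95 to 7.55 CPM, with 83 libraries below it and 63 above. Zfp618 spanned 1.42, 9.82 and 32.7 CPM, and its largest such step, from 2.54 to 2.89 CPM, left 5 libraries below it. Zfp970 spanned 3.88, 6.27 and 16.7 CPM, and 18 libraries lay above a step from 9.99 to 11.3 CPM. Zfp979 spanned 5.34, 19.7 and 34.3 CPM.

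**Figure D2:**
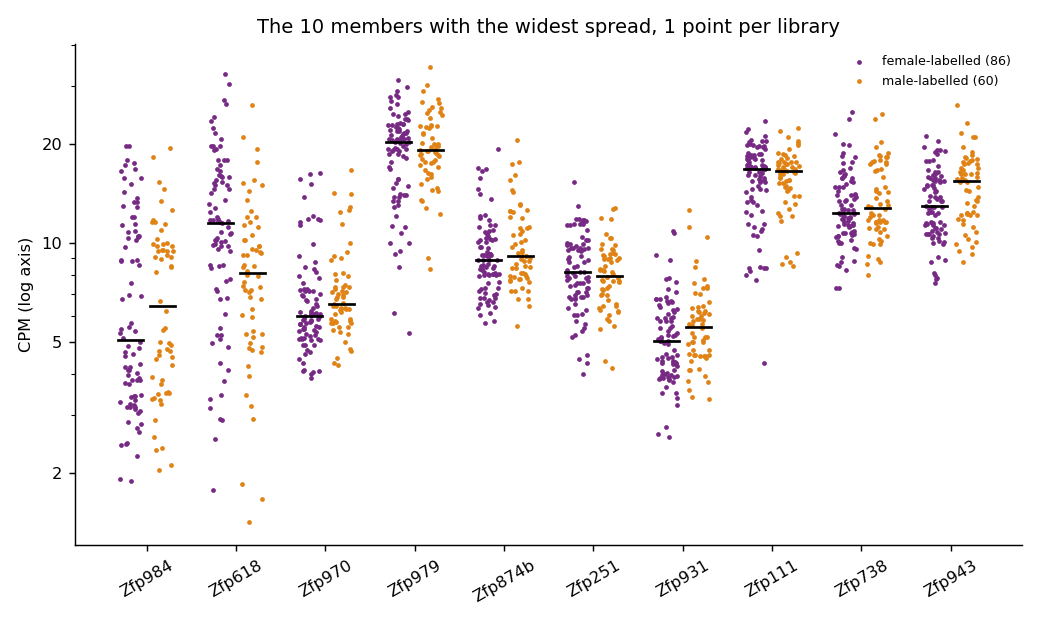
CPM (log axis) of the 10 genes with the largest ratio, with 1 point per library, 86 female-labelled and 60 male-labelled; black lines are medians. Zfp984 has 83 libraries at or under 6.95 CPM and 63 at or above 7.55 CPM, and Zfp970 has 18 libraries at or above 11.3 CPM.

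Libraries with very low counts were rare. No gene of the 224 had 5 or more libraries under 0.25 of its median, against 0.590% of the other genes. Zfp618 had 4 such libraries and Zfp758 had 1, and no other Zfp gene had any. At 0.5 of the median 3 genes had 5 or more libraries, Zfp618 with 23, Zfp984 with 12 and Zfp979 with 7, which is 1.34% of the 224 against 5.21% of the other genes. The 7 libraries low in Zfp979 were all on plate 10, so mouse and plate cannot be told apart there. A total of 199 genes never fell under 0.5 of their median. Zfp genes that lack counts in some mice would not enter the variance-stabilised table, which holds only genes with at least 5 counts in every library. The 84 Zfp genes outside it were all under 5 CPM, and 6 of them had no count in any library.

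The widest genes differed in what accompanied their spread. Plate accounted for an adjusted 13.9% and collection date for 58.8% of the variance of Zfp618, and for -0.320% and -4.42% of that of Zfp984. Date means of Zfp618 over the 17 dates with at least 4 libraries ran from 2.19 to 21.2 CPM. For Zfp979 the shares were 34.5% for plate and 26.7% for date, and for Zfp970 4.27% and 7.83%. Over the 224 genes the medians were 11.2% for plate and 24.1% for date, against 12.8% and 27.6% for the other protein-coding genes.

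After removal of plate and labelled sex, Zfp984 followed few genes. Among all other genes of the variance-stabilised table, 7 (0.0643%) passed an adjusted p of 0.05 in the permutation test. The strongest was Gm13212, a predicted zinc finger gene 2129 kb away on chromosome 4, with Spearman rho 0.884 and Pearson r 0.894 (100000 permutations, two-sided, adjusted p = 0.0182), and r 0.888 without the 2 libraries farthest from the median of Zfp984. Gm13212 ranged from 9.44 to 65.5 CPM with a median of 26.7 CPM. The called genes also included 5 others on chromosome 4, which were Dhrs3 (rho -0.539), Tnfrsf1b (rho 0.468), Zfp985 (rho 0.442), Zfp990 (rho 0.365) and Kif1b (rho -0.362). These 5 genes and Gm13212 thus lay on the chromosome of Zfp984.

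**Figure D3:**
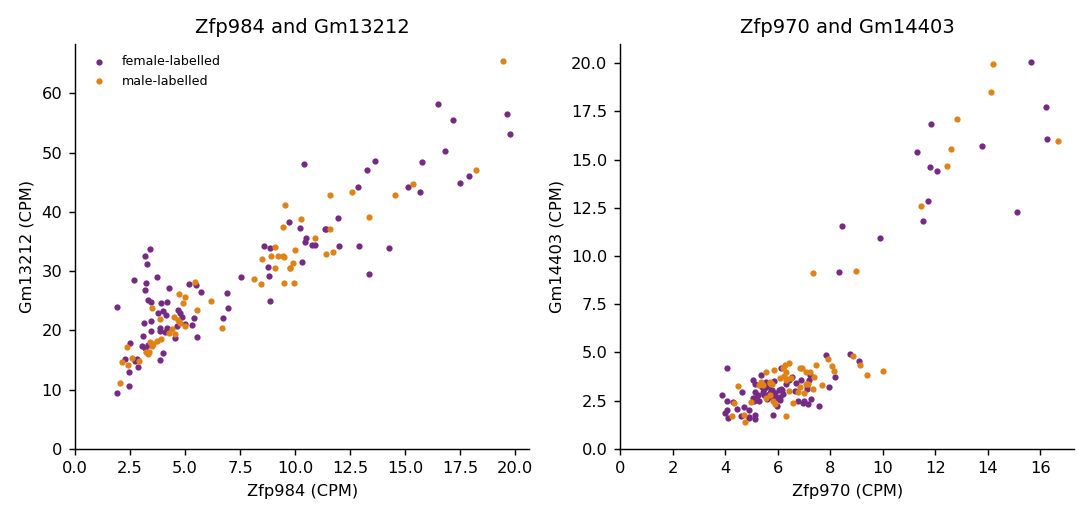
CPM per library of Zfp984 against Gm13212 (left) and of Zfp970 against Gm14403 (right), with 1 point per library coloured by labelled sex. Gm13212 is highest in the libraries with the highest Zfp984. The 18 libraries at or above 11.3 CPM of Zfp970 have at least 11.8 CPM of Gm14403. Of the libraries below that step, male 45, female 35, female 44, male 2 and female 7 have 9.10 to 11.5 CPM of Gm14403, and the rest at most 4.92 CPM.

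Zfp984 and Gm13212 are near copies, which bears on their counts. Over 1641 aligned coding bases they were 97.1% identical, and 126 of 507 windows of 120 bases held no difference. Of the 50-mers of Zfp984, 57.1% also occur in another gene, and 51.1% in Gm13212. A stretch with the median number of differences, 1, is shown to let the likeness be seen, with the differing base in capitals. It spans 2 coding exons, at chr4:147756222-147757807 on the minus strand for Zfp984 and chr4:145620579-145622165 on the plus strand for Gm13212 (GENCODE M21, GRCm38).
Zfp984: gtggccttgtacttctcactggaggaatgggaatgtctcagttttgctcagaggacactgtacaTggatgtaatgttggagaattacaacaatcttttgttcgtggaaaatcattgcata
Gm13212: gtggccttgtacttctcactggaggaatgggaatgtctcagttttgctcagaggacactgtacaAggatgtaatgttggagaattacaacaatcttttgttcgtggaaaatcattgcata
How the counting divided reads that fit both genes is not given in the sources used here, so each of these levels is uncertain, and the part of shared reads in their correlation was not tested.

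Zfp970 lies on chromosome 2 (chr2:177464733-177478129), 20.1 kb from Gm14403, another predicted zinc finger gene. Since the libraries fell into separate groups in this pair, as the plot of the pair shows, no pooled coefficient is given for it. Only 1.87% of the 50-mers of Zfp970 occur in Gm14403, although 52.8% occur in some other gene, mainly Gm14288. Zfp979 followed its neighbour Zfp985, 26.7 kb away, most closely of all genes (rho 0.557, r 0.579, adjusted p = 0.00033 by 100000 permutations), and the 2 share 0.337% of 50-mers. With other genes Zfp979 shares 29.1% of its 50-mers, mainly with Zfp600 (19.5%), and Zfp985 shares 20.3%, so the counts of both are uncertain. Zfp738, uncertain with 22.0% of its 50-mers in another gene, followed Zfp493 (rho 0.717) and Zfp65 (rho 0.678) on chromosome 13. Elsewhere Zfp111 followed its neighbour Zfp109 (rho 0.533) after Mis12 (rho 0.549), and Zfp943 followed Ppp2r1a (rho -0.634) and Zfp160 (rho 0.631), both on chromosome 17. For these genes a gene of the same chromosome was thus among the 2 closest.

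Zfp618, whose protein binds the methylated-DNA reader Uhrf2, was closest to genes of other chromosomes. It passed with 6713 genes (61.6%), led by Dock8 on chromosome 19 (rho 0.759, r 0.781) and Tns1 on chromosome 1 (rho -0.741). Zfp874b and Zfp931 likewise passed with 70.3% and 70.2% of genes, and were closest to Rb1cc1 (rho 0.826) and Arih1 (rho 0.839) on other chromosomes. These shares count positive and negative correlations alike. Only plate and labelled sex were removed before the permutations, so libraries of the same collection date were treated as exchangeable. Date accounted for an adjusted 58.8% of the variance of Zfp618, and no such share was computed with date removed. The 3 genes thus passed with most genes of the table, and Zfp984 with 7. Between these lay Zfp251 (44.2%), Zfp738 (34.6%), Zfp970 (33.8%), Zfp111 (26.3%), Zfp979 (25.3%) and Zfp943 (19.7%). Of the 50-mers of Zfp874b and Zfp931, 33.9% and 27.9% occur in another gene, so the counts of both are uncertain.

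The promoters of the 2 widest genes are shown because they differ in base composition. Both windows run from 250 bases before to 50 after the start (RefSeq, GRCm38.p6), and the capitals mark GGGCGG on either strand, the GC box bound by Sp1. The Zfp984 window (chr4:147809739-147810038, minus strand) has 44.7% GC and 1 GC box, and the Zfp618 window (chr4:62965317-62965616, plus strand) has 88% GC, 59 CpG and 4 GC boxes.
Zfp984: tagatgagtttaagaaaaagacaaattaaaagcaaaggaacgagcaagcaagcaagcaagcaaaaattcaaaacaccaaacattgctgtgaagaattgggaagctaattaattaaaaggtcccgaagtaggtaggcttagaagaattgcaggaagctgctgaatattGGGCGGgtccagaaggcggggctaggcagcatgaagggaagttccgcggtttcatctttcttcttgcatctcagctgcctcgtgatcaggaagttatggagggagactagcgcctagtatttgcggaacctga
Zfp618: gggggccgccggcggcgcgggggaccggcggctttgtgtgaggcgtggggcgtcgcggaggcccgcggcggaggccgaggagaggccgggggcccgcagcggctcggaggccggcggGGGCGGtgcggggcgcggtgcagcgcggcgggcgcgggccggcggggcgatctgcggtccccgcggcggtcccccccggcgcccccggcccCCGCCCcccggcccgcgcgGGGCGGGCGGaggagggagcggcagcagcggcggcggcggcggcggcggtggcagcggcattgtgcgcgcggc
A match is a description of the letters and not a binding site.

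The 224 genes were unevenly spread over the genome. Chromosome 7 held 46 of them (20.5%, against 7.18% of the protein-coding genes chosen by the same rules), chromosome 17 held 35 (15.6% against 5.17%), chromosome 13 held 18 (8.04% against 3.76%), and chromosome 8 held 17 (7.59% against 5.54%). Chromosome 10 and chromosome 19 held 2 each. Joining neighbours at most 500 kb apart gave 19 clusters of at least 3 genes with 109 members in all (48.7%). Of the genes with a KRAB match 71 of 97 (73.2%) lay in a cluster, against 37 of 119 (31.1%) of the C2H2 genes without it. The largest cluster held 19 genes at chr17:21008903-23564238, and clusters of 11 genes lay at chr13:67121660-67729173 and at chr17:32765496-33631779.

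Cluster members rose and fell together to different degrees. Over plate- and sex-adjusted values the 55 pairs of the chromosome 13 cluster were all positive, with rho from 0.243 to 0.801 and a median of 0.620. These 11 genes were Zfp759, Zfp595, Zfp874a, Zfp874b, Zfp58, Zfp87, Zfp748, Zfp729b, Zfp729a, Zfp738 and Zfp65, and their mean levels ran from 5.32 to 27.7 CPM. The 19 genes on chromosome 17 had a median rho of 0.283 over 171 pairs, from -0.305 to 0.714, with Zfp52 and Zfp160 as the closest pair. The 11 genes of the other chromosome 17 cluster had a median of 0.302, from -0.399 to 0.630. On chromosome 7, 8 genes at chr7:29768552-30169750 had a median of 0.336, with Zfp790 and Zfp260 closest (rho 0.635), and 7 genes at chr7:127233061-127885996 had a median of 0.304. On chromosome 6, 7 genes at chr6:47835661-48445825 had a median of 0.269, with all 21 pairs positive. The 3 chromosome 18 genes Zfp397, Zfp35 and Zfp24 had a median of 0.640, with Zfp24 and Zfp35 closest (rho 0.651). Clusters with little common variation were Zfp653, Zfp809 and Zfp810 on chromosome 9 (median -0.0472), Zfp180, Zfp111 and Zfp61 on chromosome 7 (median -0.0175) and the chromosome 7 cluster of Zfp787, Zfp444, Zfp667 and Zfp28 (median 0.0423).

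The closest pairs of the remaining clusters were as follows. On chromosome 4 Zfp933 and Zfp979 had rho 0.271. On chromosome 5 Zfp157 and Zfp68 had rho 0.459, and on chromosome 6 Zfp212 and Zfp746 had rho 0.441. On chromosome 7 the closest pairs were Zfp865 and Zfp628 (rho 0.457), Zfp667 and Zfp28 (0.459), Zfp606 and Zfp110 (0.414), Zfp180 and Zfp111 (0.344), Zfp60 and Zfp780b (0.514), and Zfp668 and Zfp646 (0.512), genes that overlap each other. On chromosome 8 they were Zfp866 and Zfp869 (0.542) and Zfp709 and Zfp617 (0.406), and on chromosome 9 Zfp266 and Zfp26 (0.595) and Zfp809 and Zfp810 (0.177). On chromosome 15 Zfp707 and Zfp41 reached 0.178. All of these passed an adjusted p of 0.05 over the 24976 Zfp pairs by 100000 permutations, except Zfp809 with Zfp810 (adjusted p = 0.0617) and Zfp707 with Zfp41 (adjusted p = 0.0585). No pair was chosen without its value in view, since each is the highest of its cluster.

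The promoters of the tandem copies Zfp874a and Zfp874b on chromosome 13 are shown because these genes were among the closest pairs (rho 0.783). The RefSeq windows (GRCm38.p6, 250 bases before to 50 after the start) lie at chr13:67451575-67451874 and chr13:67484204-67484503, both on the minus strand, and capitals mark runs of at least 12 bases found in both.
Zfp874a: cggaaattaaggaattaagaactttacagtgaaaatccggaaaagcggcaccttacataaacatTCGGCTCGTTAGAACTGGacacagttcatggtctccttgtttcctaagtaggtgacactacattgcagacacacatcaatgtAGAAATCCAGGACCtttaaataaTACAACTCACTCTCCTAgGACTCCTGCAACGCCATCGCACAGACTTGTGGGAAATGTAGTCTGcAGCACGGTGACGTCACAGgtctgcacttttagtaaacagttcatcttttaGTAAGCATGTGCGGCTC
Zfp874b: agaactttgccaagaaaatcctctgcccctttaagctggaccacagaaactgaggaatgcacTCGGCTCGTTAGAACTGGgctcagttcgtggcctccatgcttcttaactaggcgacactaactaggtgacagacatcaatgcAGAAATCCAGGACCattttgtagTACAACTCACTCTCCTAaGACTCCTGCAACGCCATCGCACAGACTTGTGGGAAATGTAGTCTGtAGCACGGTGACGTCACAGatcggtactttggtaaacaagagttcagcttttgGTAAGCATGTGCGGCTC
The windows were 85.4% identical over 280 aligned bases, with 129 bases in shared runs. Of the 50-mers of Zfp874b 22.4% occur in Zfp874a, and of those of Zfp874a 12.0% occur in Zfp874b.

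The longest shared run holds, on the opposite strand, the letters ACTACATTTCCC, a form of the motif ACTACA, any base, TTCCC, which is bound by Zfp143, an activator of many housekeeping promoters. This motif was searched after the run had been seen. On either strand it stood in the promoters of 24 of the 189 Zfp genes with a RefSeq window (12.7%), against 2.38% of 7532 other protein-coding genes chosen by the same rules and 1.09% of all 27025 genes in the table. Of the 24 genes 10 lay on chromosome 7 and 8 on chromosome 13. In the chromosome 13 cluster 8 of the 9 genes with a window held it (88.9%), and their 36-base windows are shown with the motif in capitals, as read along the strand that carries it.
Zfp759: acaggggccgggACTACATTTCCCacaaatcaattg
Zfp595: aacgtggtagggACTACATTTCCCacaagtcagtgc
Zfp874a: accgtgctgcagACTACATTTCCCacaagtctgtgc
Zfp874b: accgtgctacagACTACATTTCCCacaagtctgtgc
Zfp58: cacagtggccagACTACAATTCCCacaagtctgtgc
Zfp748: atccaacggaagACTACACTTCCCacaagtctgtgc
Zfp729a: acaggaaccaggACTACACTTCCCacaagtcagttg
Zfp738: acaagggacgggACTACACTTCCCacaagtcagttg
In order these lie at chr13:67128164-67128199, chr13:67332588-67332623, chr13:67451634-67451669, chr13:67484265-67484300, chr13:67500530-67500565, chr13:67553155-67553190, chr13:67637792-67637827 and chr13:67683545-67683580 (GRCm38), the first on the minus strand and the others on the plus strand, always opposite to the gene. The motif began 26 to 56 bases before the start. The bases that follow it are also alike, and these copies share descent, so they are not independent occurrences. A match is a description and not a shown site, and binding was not measured here.

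Pairs of Zfp genes that both had this motif had a median rho of 0.313 over 276 pairs, and 0.290 over the 202 pairs on different chromosomes. Pairs in which neither had it had a median of 0.0889 over 13530 pairs, and mixed pairs 0.161 over 3960. The motif was read from promoters shown for the high rho of their genes, and 19 of the 24 genes with it lay in a cluster. These medians thus use the values that led to the motif and are a description without a test. The level of Zfp143 itself was 23.6 ± 3.01 CPM (SD, n = 146). Other motifs differed less or in the other direction. GGGCGG stood in 52.4% of the Zfp promoters against 71.7% of those of the other genes, CCAAT in 49.2% against 42.9%, CCGGAAGT (the ETS core) in 12.7% against 10.7%, TGACGTCA (the CRE) in 4.76% against 3.82%, GCGC, AT and GCGC joined (NRF1) in 3.70% against 2.66%, AAGATGGC (YY1) in 4.23% against 6.13%, and TATAAA in 6.88% against 8.07%. Over all 27025 genes the shares were 38.2% for GGGCGG, 41.1% for CCAAT, 4.31% for CCGGAAGT, 2.03% for TGACGTCA, 1.07% for the NRF1 letters, 3.19% for AAGATGGC and 15.7% for TATAAA. Median promoter GC was 56.7% for the Zfp genes and 61.3% for the others, and within the Zfp genes 53.2% with a KRAB match and 61.7% for C2H2 genes without it.

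An identical promoter pair is shown as the extreme of duplication. Zfp955a (chr17:33255096-33255395, minus strand) and Zfp955b (chr17:33289294-33289593, plus strand) had the same 300 bases (RefSeq, GRCm38.p6).
Zfp955a and Zfp955b: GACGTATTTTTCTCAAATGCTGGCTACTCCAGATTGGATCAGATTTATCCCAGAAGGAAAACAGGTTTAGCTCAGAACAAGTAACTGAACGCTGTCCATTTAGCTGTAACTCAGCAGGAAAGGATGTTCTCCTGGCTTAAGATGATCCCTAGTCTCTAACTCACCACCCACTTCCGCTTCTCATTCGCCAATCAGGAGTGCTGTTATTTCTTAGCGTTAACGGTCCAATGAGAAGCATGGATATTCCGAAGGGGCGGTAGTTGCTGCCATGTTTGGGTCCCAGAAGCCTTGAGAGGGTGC
Zfp955a had 11.0 ± 1.53 CPM and Zfp955b 6.52 ± 0.978 CPM (SD, n = 146), and rho between them was 0.630 (r 0.643, adjusted p = 5.28e-05 by 100000 permutations). Of their 50-mers 52.1% and 49.9% occur in another gene, so both levels are uncertain.

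Over all 24976 pairs of Zfp genes the median rho was 0.101, with 63.8% of pairs positive and 1401 pairs (5.61%) above 0.5. For all pairs of the variance-stabilised table the median was -0.0016 and 2.46% were above 0.5. For 496 Zbtb pairs the median was 0.0906, with 62.9% positive and 6.05% above 0.5, so these shares were near those of the Zfp pairs. Pairs of a Zfp gene with another protein-coding gene had a median of -0.0058. In the permutation test 9582 pairs were positive and 3446 negative at an adjusted p under 0.05, which is 52.2% of pairs. Only plate and labelled sex were removed before the permutations. Libraries of the same collection date were thus treated as exchangeable, here and for every pair p-value in this report. The test was not run over pairs of other genes, so this share has no background beside it. The quartiles of rho were -0.0836 and 0.287 for the Zfp pairs, and -0.177 and 0.177 for pairs of other protein-coding genes. The median was 0.381 within 100 kb (109 pairs), 0.288 from there to 500 kb (202 pairs), 0.176 to 5 Mb (354 pairs), 0.110 farther along a chromosome (1707 pairs) and 0.0962 between chromosomes (22604 pairs). Genes that shared at least 20% of their 50-mers with another gene numbered 29. Without them, a setting picked with these values in view, the overall median was 0.102 and that within 100 kb was 0.359 (77 pairs).

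**Figure D4:**
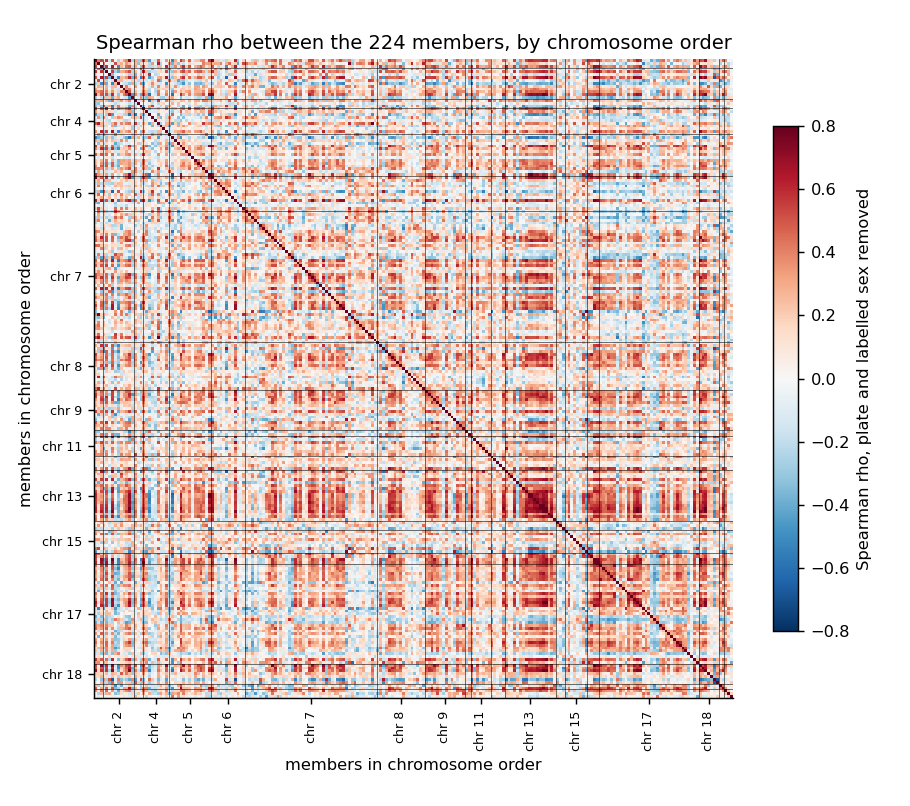
Spearman rho between the 224 Zfp genes in chromosome order, after removal of plate and labelled sex (146 libraries), with lines between chromosomes. The block on chromosome 13 holds the cluster of 11 genes with a median rho of 0.620, and red stripes show the genes of chromosomes 13, 17 and 18 rising together with genes of other chromosomes.

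The medians also differed by class. Pairs of genes with a KRAB match had a median rho of 0.243 over 4656 pairs, and 0.233 over the 3937 pairs on different chromosomes. Pairs of C2H2 genes without the match had a median of 0.0485 over 7021 pairs, and mixed pairs 0.0695 over 11543. A tree on 1 minus Pearson r, divided at 0.6, gave 10 groups of at least 4 genes with 136 genes in all. The largest held 77 genes from 16 chromosomes, with a median rho of 0.465, led by Zfp729a, Zfp729b, Zfp24, Zfp748, Zfp595 and Zfp397. It took in 47 of the 97 genes with a KRAB match (48.5%) and 29 of the 119 C2H2 genes without it (24.4%). The next, with 15 genes and a median rho of 0.435, was led by Zfp646, Zfp592, Zfp740 and Zfp46 and held Zfp36l2 and Zfp384. A group of 11 was led by Zfp574, Zfp865 and Zfp598. These groups were built from the same values and are not tested.

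The 10 closest pairs joined genes of different chromosomes in 7 cases. Zfp148 and Zfp397 had rho 0.822 (r 0.829), and Zfp292 and Zfp654 had rho 0.822 (r 0.824). Zfp655 and Zfp874b had rho 0.819, Zfp646 and Zfp46 rho 0.813, and Zfp24 and Zfp729b rho 0.805. Zfp729b, with 30 fingers, entered 5 of the 10 pairs, also with Zfp729a (rho 0.801), Zfp748 (0.788), Zfp944 (0.785) and Zfp931 (0.785), but 46.1% of its 50-mers occur in another gene, 45.7% in Gm49345, and its counts are uncertain. The tenth pair was Zfp874b with Zfp874a. The most opposed pairs were Zfp638 with Zfp516 (rho -0.705), Zfp516 with Zfp120 (-0.676), Zfp407 with Zfp516 (-0.676), Zfp655 with Zfp512 (-0.673) and Zfp322a with Zfp777 (-0.664). Each of these 15 pairs had the smallest p that the permutations can give, 1e-05, and an adjusted p of 5.28e-05, with libraries of the same date treated as exchangeable. Zfp516, known for driving the brown fat programme, thus appeared in 3 of the 5 opposed pairs. With date in place of plate the opposed pairs, in the same order, stood at -0.452, -0.477, -0.482, -0.700 and -0.490. The 10 closest pairs then stood at 0.704 to 0.827. Once the first principal component of all other genes was removed, Zfp655 with Zfp512 stood at 0.0118 and the other opposed pairs at -0.694 to -0.615. Of the closest pairs, Zfp655 with Zfp874b then stood at 0.329 and Zfp874b with Zfp874a at 0.394. The rest of the closest pairs stood at 0.541 to 0.762.

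A mean of the 224 genes, each standardised, was taken per library. Of the 224 genes 178 were positively correlated with this mean, which contains them, and so were 49.7% of the genes outside it. The first principal component of the 224 held 24.3% of their variance and the second 11.3%. Zfp729a had the highest mean rho to the other Zfp genes, 0.259, with 64 partners above 0.5, followed by Zfp595. The lowest were Zfp64 (-0.151), Zfp516 (-0.147), Zfp512 (-0.146) and Zfp618 (-0.132), all negative. Outside the 224, the genes closest to the mean were Ccnt1 (rho 0.796), the cyclin of the elongation factor P-TEFb, Mga (0.788), a partner of Max, Nipbl (0.769), the cohesin loader, Itch (0.760), Lnpep (0.753), Vcpip1 (0.748), Birc2 (0.747), Phf3 (0.746), Zkscan1 (0.737) and Apc (0.733). The most opposed, named by the same number after their values were seen, were Anapc2 (rho -0.789), a subunit of the anaphase-promoting complex, Stub1 (-0.787), Cdk4 (-0.765), the G1 kinase, Arhgdia (-0.764), Hspbp1 (-0.764), Capg (-0.757), Snx17 (-0.757), Cdk18 (-0.756), Mtch1 (-0.755) and E2f1 (-0.754).

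Library-wide measures moved with this mean. Over 146 libraries its Pearson r was 0.688 (rho 0.613) with the first principal component of all other genes. It was 0.571 (rho 0.536) with the level of long against short other genes, and -0.476 (rho -0.461) with that of GC-rich against GC-poor other genes. With the log2 total count r was -0.104 (rho 0.0365), and 0.00286 without the 2 libraries farthest from the median. The Zfp genes had a median transcript GC of 45.1% against 49.9%, and a median exon length of 4978.5 against 4557 bases. The part of base composition, transcript length and RNA quality in the shared movement was not tested. With the first component of the other genes removed, the median rho over Zfp pairs was 0.0727, within the chromosome 13 cluster 0.397, and between genes with a KRAB match 0.190.

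Programmes of other genes were scored as the mean of their standardised values, and each Zfp gene was regressed on each score with plate and labelled sex as covariates (limma, Benjamini-Hochberg over all genes of the table). A slope is the change of the log2 value per SD of the score. The DNA replication score, from 16 genes such as the Mcm helicase subunits, gave 27 rising and 138 falling Zfp genes. Of all 10877 genes 73.6% passed, 36.7% rising and 36.9% falling, so the share of Zfp genes that passed (73.7%) was that of all genes, while their direction was mostly negative. The median slope was -0.047 for the Zfp genes and -0.0013 for all genes. The falling genes with the largest slopes were Zfp874b (-0.24, SE 0.018), Zfp931 (-0.22), Zfp874a (-0.21), Zfp655 (-0.17) and Zfp263 (-0.16). The rising ones were Zfp618 (0.36, SE 0.041, adjusted p = 1.43e-14), Zfp512 (0.14), Zfp367 (0.09), Zfp946 (0.09) and Zfp395 (0.09). Of the genes with a KRAB match 7 rose and 68 fell, and of the C2H2 genes without it 20 rose and 65 fell.

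**Figure D5:**
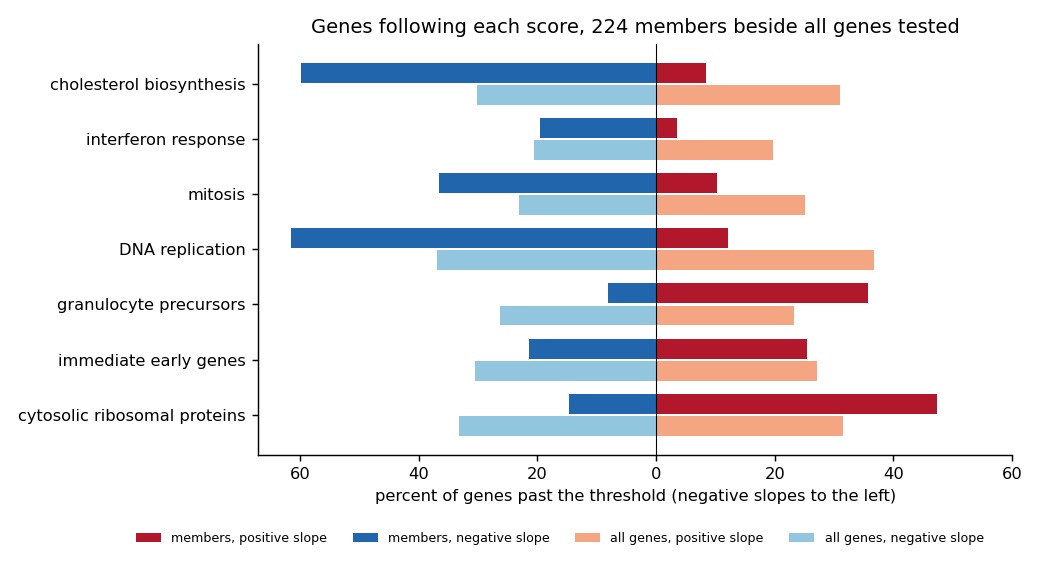
Percent of genes past the threshold (limma, adjusted p under 0.05) with a positive slope (right) or negative slope (left) on each score, for the 224 Zfp genes (dark) and all genes tested (light). Negative slopes outnumber positive ones among the Zfp genes for DNA replication (138 against 27) and cholesterol biosynthesis (134 against 19), and positive ones do so for ribosomal protein genes (106 against 33).

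The cholesterol biosynthesis score, from 20 genes of the pathway, gave 19 rising and 134 falling Zfp genes, against 61.2% of all genes, 31% rising and 30.2% falling. The largest slopes were those of Zfp874b (-0.18), Zfp931 (-0.16), Zfp874a (-0.16), Zfp263 (-0.12) and Zfp654 (-0.12), and of Zfp618 (0.11), Zfp512 (0.10), Zfp523 (0.07), Zfp948 (0.07) and Zfp367 (0.07). The mitosis score gave 23 rising and 82 falling, against 48.2% of all genes, 25.1% rising and 23.1% falling. Here Zfp874b (-0.14), Zfp263 (-0.11), Zfp874a (-0.11), Zfp36l2 (-0.11) and Zfp931 (-0.10) fell most. Zfp946 (0.08), Zfp995 (0.07), Zfp143 (0.07), Zfp710 (0.07) and Zfp512 (0.07) rose most. The interferon response score gave 8 rising and 44 falling, which is 23.2% of the 224, against 40.3% of all genes, 19.7% rising and 20.6% falling. Zfp874b (-0.10), Zfp655 (-0.08), Zfp931 (-0.08), Zfp874a (-0.07) and Zfp263 (-0.07) fell most, and Zfp618 (0.17), Zfp512 (0.07), Zfp710 (0.06), Zfp143 (0.05) and Zfp213 (0.05) rose most. These scores share libraries and partly the same movement, so they are not independent comparisons.

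The ribosomal protein score, from 72 genes, went the other way, with 106 rising and 33 falling Zfp genes, against 64.6% of all genes, 31.5% rising and 33.2% falling. Zfp874b (0.20), Zfp874a (0.15), Zfp931 (0.14), Zfp655 (0.14) and Zfp263 (0.12) rose most, and Zfp618 (-0.23), Zfp512 (-0.13), Zfp395 (-0.10), Zfp946 (-0.09) and Zfp609 (-0.09) fell most. Of the genes with a KRAB match 54 rose and 6 fell. The granulocyte precursor score gave 80 rising and 18 falling, against 49.4% of all genes, 23.2% rising and 26.2% falling. Zfp984 (0.16, SE 0.055), Zfp608 (0.14), Zfp874b (0.13), Zfp971 (0.11) and Zfp655 (0.09) rose most, and Zfp618 (-0.11), Zfp512 (-0.08), Zfp395 (-0.07), Zfp251 (-0.06) and Zfp948 (-0.06) fell most. That score is itself a marker of other cells in the culture, and its part in the other relations was not tested.

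Immediate early genes, which respond within minutes to signals and handling, gave 57 rising and 48 falling Zfp genes, against 57.7% of all genes, 27.1% rising and 30.6% falling. Zfp36, which belongs to the immediate early response itself, had the largest slope (0.18, SE 0.017, adjusted p = 7.64e-18). Zfp263 (0.11), Zfp874b (0.11), Zfp36l2 (0.10) and Zfp874a (0.10) followed, and Zfp618 (-0.11), Zfp946 (-0.11), Zfp961 (-0.10), Zfp979 (-0.09) and Zfp710 (-0.08) fell most. No Zfp gene followed the log2 total count at an adjusted p under 0.05, and neither did any of the 10893 genes (0%).

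The slopes were computed again after the leading component of the remaining genes had been taken out. With it removed, 85 Zfp genes passed for DNA replication (37.9%, against 40.2% of all genes), 57 for cholesterol biosynthesis (25.4% against 25.2%) and 55 for mitosis (24.6% against 28.9%). These shares were near those of all genes. For ribosomal proteins 33 passed (14.7% against 29.9%), for granulocyte precursors 26 (11.6% against 28.3%) and for interferon response 1 (0.446% against 6.2%), which are lower shares than those of all genes. For immediate early genes 127 passed (56.7% against 35.3%), a higher share. The falling genes numbered 70 for DNA replication (31.2%, against 18.9% of all genes) and 102 for immediate early genes (45.5% against 18.2%). Of the 70 slopes named above 18 changed sign, 33 kept it but no longer passed, and 19 kept both. Among those that changed sign was Zfp874b on DNA replication, at 0.00463. Zfp618 on DNA replication stood at 0.07 and did not pass (adjusted p = 0.152), and at 0.20 with date in place of plate. The slope of Zfp36 on immediate early genes stood at 0.15 and passed.

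The genes through which KRAB proteins act were counted beside them. Of 31 listed genes such as Trim28, Setdb1, Cbx5, Dnmt1 and Uhrf1, 30 were tested. With DNA replication 17 rose and 8 fell (73.6% of all genes passed), with mitosis 17 rose and 0 fell (48.2%), with cholesterol biosynthesis 15 rose and 7 fell (61.2%), and with interferon response 13 rose and 2 fell (40.3%). With immediate early genes 0 rose and 17 fell (57.7%), with ribosomal proteins 4 rose and 14 fell (64.6%), and with granulocyte precursors 6 rose and 6 fell (49.4%). Without the leading component 8 rose and 4 fell for DNA replication (40.2% of all genes passed) and 15 and 2 for mitosis (28.9%). For cholesterol biosynthesis 2 rose and 1 fell (25.2%), and for interferon response 3 and 0 (6.2%). The counts were then 0 and 13 for immediate early genes (35.3%), 2 and 5 for ribosomal proteins (29.9%), and 9 and 2 for granulocyte precursors (28.3%). The list holds several S-phase genes, among them Uhrf1 and Dnmt1.

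The number of Zfp genes that differed between the labelled sexes moved with the covariates. By edgeR's quasi-likelihood test with plate as covariate, 4 of 224 differed (1.79%), 3 higher and 1 lower in males, against 5.02% of the 12060 genes tested, 2.17% higher and 2.84% lower. With lane within plate as covariate 21 passed, 19 of them higher in males (9.38%, against 7.86% of all genes), with collection date in place of plate 12 (5.36% against 5.52%), and with limma voom 10 (4.46% against 5.95%). Without the 6 libraries against their label 7 passed (3.12% against 7.69%). The share among the Zfp genes was thus under that of all genes with plate and above it with lane. At an unadjusted p under 0.05 there were 39 with plate, and 42 without the 6 libraries. The share of all genes at that unadjusted p was not counted, so these and the unadjusted counts below have no background beside them. The median log2 difference (male minus female) was 0.02 over the 224 genes, with and without the 6 libraries, and 0.0015 over all genes. P-values here measure the spread between libraries, each labelled as a separate mouse.

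Zfp709, a gene with a KRAB match on chromosome 8, had a lowest, median and highest level of 6.34, 9.92 and 15.3 CPM in females and of 7.41, 10.8 and 14.9 CPM in males. The ranges overlapped widely, and 46 of 60 males lay above the female median. The means were 10.1 ± 1.72 CPM (SD, n = 86) and 11.0 ± 1.66 CPM (SD, n = 60), a log2 difference of 0.14 (SE 0.040, edgeR adjusted p = 0.0206). Males were higher in 6 of 7 plates, with within-plate differences from -0.05 to 0.24. Zfp182, an X-linked gene with a KRAB match, had 10.1 ± 1.61 CPM (SD, n = 86) in females and 11.2 ± 1.64 CPM (SD, n = 60) in males. Its log2 difference was 0.13 (edgeR adjusted p = 0.0258), and males were higher in 7 of 7 plates (0.07 to 0.35). Zfp619 on chromosome 7 had 5.28 ± 1.06 CPM (SD, n = 86) and 5.89 ± 1.10 CPM (SD, n = 60), a log2 difference of 0.16 (edgeR adjusted p = 0.0409), with males higher in 6 of 7 plates (-0.08 to 0.33). All these differences were smaller than the spread between mice of a sex.

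Zfp593, whose protein has a single finger match, was lower in males, with 9.09 ± 1.13 CPM (SD, n = 60) against 9.94 ± 1.29 CPM (SD, n = 86). The log2 difference was -0.11 (edgeR adjusted p = 0.0223), and males were lower in 7 of 7 plates (-0.18 to -0.06). It shares 66.2% of its 50-mers with E130218I03Rik, which overlaps it. The library type does not mark strand, so reads of the shared stretches cannot be assigned to either gene by strand. Without the 6 libraries against their label the log2 differences were 0.15 for Zfp709 (edgeR adjusted p = 0.0135), 0.14 for Zfp182 (0.0195), 0.17 for Zfp619 (0.0279) and -0.12 for Zfp593 (0.00679). Over 14 alternative settings the adjusted p ranged from 0.00747 to 0.175 for Zfp709, from 0.0137 to 0.129 for Zfp182, from 0.0245 to 0.217 for Zfp619 and from 0.00679 to 0.112 for Zfp593, of which 11, 10, 9 and 10 passed. Without plate 4 no Zfp gene passed edgeR's test, against 1.91% of all genes, with 13 Zfp genes at an unadjusted p under 0.05.

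The largest sex difference by size was that of Zfp618, which did not pass and is named after its value was seen. It had a lowest, median and highest level of 1.78, 11.5 and 32.7 CPM in females and of 1.42, 8.10 and 26.2 CPM in males. The log2 difference was -0.40 (SE 0.13, edgeR adjusted p = 0.0549), and within plates it ran from -1.17 to 0.02, with males lower in 6 of 7. Over 14 alternative settings the adjusted p ranged from 0.0110 to 0.292, and 6 of them passed. Without the 6 libraries against their label it was -0.41 (adjusted p = 0.0454). None of the 224 genes differed in its sex effect between plates by edgeR (0.0415% of all genes did, and 9 Zfp genes at an unadjusted p under 0.05). Without the 6 libraries none did by edgeR either, with 10 at an unadjusted p under 0.05. For the corepressor list 1 of 30 genes differed between sexes, where 5.02% of all genes tested did. This was Dnmt3b, which was lower in males (log2 difference -0.13, edgeR adjusted p = 0.0237), and Trim28 stood at -0.02. Without the 6 libraries 2 of 30 differed, where 7.69% of all genes tested did. These were Dnmt3b (-0.16, edgeR adjusted p = 0.00334) and Mta1 (-0.09, adjusted p = 0.0267), both lower in males, and Trim28 stood at -0.02.

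Plate and date touched most of the 224 genes, as they did most genes. By edgeR 184 differed between plates (82.1%), against 74.8% of all genes tested, and 202 between dates (90.2%), against 87.6%. Plate gave its 6 smallest p-values to Zfp664, with plate means from 70.1 CPM on plate 7 to 83.4 CPM on plate 1, Zfp81 (14.7 to 20.5 CPM), Zfp326 (28.3 to 35.2 CPM), Zfp933 (11.0 to 16.1 CPM), Zfp276 (20.1 to 26.3 CPM) and Zfp646 (60.7 to 77.6 CPM). For dates, by the same number chosen after the values were seen, the genes were Zfp322a (23.7 to 37.2 CPM over the 17 dates with at least 4 libraries), Zfp516 (62.8 to 101 CPM), Zfp638 (92.5 to 169 CPM), Zfp397 (39.4 to 58.4 CPM), Zfp618 (2.19 to 21.2 CPM) and Zfp28 (up to 19.7 CPM). Zfp516 and Zfp638, the most opposed pair, were thus both among the genes that differed most between dates. Of the 28 dates 10 occur on more than 1 plate, so plate and date overlap in part.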

How the data were processed

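Per the labels' protocols, polyadenylated RNA was sequenced as paired 100-base reads from a library type that does not mark strand. Per the submitters' processing notes, FastQC, TopHat2 2.0.11, HTSeq 0.6.1 and DESeq2 were used with GRCm38 (mm10); the annotation release and the strand setting are not given in the sources used here. The deposited raw counts (22721 genes) gave CPM and the edgeR tests, and the deposited log2 values after variance stabilisation by DESeq2 (10893 genes) gave correlations and limma slopes. The members and lists were chosen with earlier results of these data known. GENCODE M21 names matched 21822 gene identifiers, and the 899 unmatched held 0.160% of counts.

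Sex, plate and date were tested with edgeR 4.0.16 (quasi-likelihood, TMM, filterByExpr, R 4.3.3), scores with limma 3.58.1, and pairs with 100000 permutations (two-sided) after linear removal of plate and sex, all with Benjamini-Hochberg adjustment at 0.05; DESeq2 1.42.0 was an alternative. The pair permutations treated libraries of the same collection date as exchangeable. The sex test, the score slopes and the pair permutations were tried on simulated data, and the tests of plate, date and interaction were not. Shared 50-mers were counted at 1 position in 8 over annotated transcripts, and 20% or more is called uncertain. Named genes were the 10 highest, the 5 on either side of the threshold, the 10 widest and 5 steadiest, those past the sex threshold, the 6 smallest p-values for plate, the 5 largest slopes per direction and score, the 10 highest and 5 lowest pairs, the closest pair of each cluster and the 10 genes nearest the mean. Counting error was not separated from variation between mice, and the depth per library is given with the results. A correlate of Zfp984 is not reported here.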

Additional observations from a re-analysis of the deposited data

How the results depend on the processing

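Of 77 summary values under alternative settings 54 stayed within 1.5 times the reported count or within the spread, and 23 did not. The 4 Zfp genes differing between labelled sexes (1.79%, against 5.02% of all genes) became 10 with limma voom (4.46% against 5.95%), 21 with lane within plate as covariate (9.38% against 7.86%), 12 with date in place of plate (5.36% against 5.52%), and 7 without the libraries against their label (3.12% against 7.69%). Leaving out a plate gave 2 without plate 1, 7 without plate 2, 2 without plate 3, 0 without plate 4, 2 without plate 7, 1 without plate 8 and 9 without plate 10, where 1.91% to 5.01% of all genes passed. DESeq2 size factors and no filter on low counts gave 4, and DESeq2 gave 5. For every programme score except immediate early genes, removing the first principal component gave lower counts of Zfp genes and lower shares of all genes. The counts were 57 for cholesterol biosynthesis (25.2% of all genes), 1 for interferon response (6.2%), 55 for mitosis (28.9%), 85 for DNA replication (40.2%), 26 for granulocyte precursors (28.3%) and 33 for ribosomal proteins (29.9%). For immediate early genes more Zfp genes passed, while the share of all genes fell to 35.3%. The median rho of 0.101 was 0.171 within plate 1, 0.0548 within plate 3 and 0.145 within plate 10. At 0.5 of the median 3 genes had 5 or more low libraries in place of 0. The genes with a ratio over 2 numbered 16 at a threshold of 2 CPM (286 genes) and 2 at 10 CPM (167 genes).

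The slopes that changed sign without the first component were those of Zfp618 on cholesterol biosynthesis (-0.13), granulocyte precursors (0.0477), immediate early genes (0.0809) and ribosomal proteins (0.0142), of Zfp874b on interferon response (0.00359), DNA replication (0.00463) and immediate early genes (-0.0343), of Zfp874a on interferon response (0.0160) and immediate early genes (-0.0196), and of Zfp931 on interferon response (0.0105), mitosis (0.00348) and ribosomal proteins (-0.0176). The others were Zfp263 on interferon response (0.000505), Zfp512 on mitosis (-0.00460) and DNA replication (-0.0267), and Zfp655 (0.0311), Zfp395 (-0.00717) and Zfp946 (-0.00130) on DNA replication. The cause was not tested for any of these changes. Of the other single-gene values 288 kept direction and side of the threshold, 14 newly passed and 58 no longer passed. No paired analysis was possible because the replicate numbers were given in accession order and pair no samples. Precision is limited for genes near 5 CPM, where the lowest count was 36.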
